A study of Mus musculus with 16 samples.

Results

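Bone morphogenetic protein (BMP) signaling was followed through 10 genes, which are the ligands Bmp2, Bmp4 and Bmp6, the type II receptor Bmpr2, the antagonist Grem1, the SMAD genes Smad9 and Smad6, and the target genes Id1, Id2 and Id3. They were chosen by name, as the rows of the count table whose Ensembl identifiers map to these symbols, and all 10 of them were found among 55487 genes. RNA had been sequenced from cultured heart slices of male mice aged 8 weeks, with 4 libraries in each of 4 groups. WT slices came from C57Bl6/J mice. Swhtr null slices came from mice homozygous for the Swhtr3xpA allele, in which a transcriptional stop signal ends transcription of the long non-coding RNA Sweetheart (Swhtr). Untreated slices spent 14 days at 21% oxygen. Treated slices spent 7 days under hypoxia (3% oxygen) and then recovered for 7 days at 21% oxygen, so that treated slices were sampled after recovery and all slices had spent the same time in culture. The Swhtr null mice were kept as a homozygous line with no WT littermates, so that the allele and the line cannot be told apart. The slices derived from 4 mice per genotype, while 8 libraries per genotype were sequenced. Which library came from which mouse is not stated, some libraries of a genotype therefore share a mouse, and the p-values below measure the spread between libraries.

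BMPs are secreted ligands of the TGF-beta family. They assemble type I and type II receptors, which phosphorylate SMAD1, SMAD5 and SMAD9, and these enter the nucleus with SMAD4 and switch on targets such as the Id genes and Smad6. SMAD6 in turn inhibits the receptors and their SMADs, and antagonists such as gremlin bind the ligands outside the cell. In the heart the pathway is known for its part in cardiac development, in valve formation and in endothelial cells, and ID proteins are inhibitors of basic helix-loop-helix transcription factors.

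The libraries held 17830351 to 29941903 counts. Levels are given as CPM, which are counts scaled to a common library size. The tissue is labelled as heart, but the 12 cardiomyocyte markers summed to only 6.82 to 102 CPM per library, with Nppa and Myh7 at 0 in all WT untreated libraries, while 10 fibroblast markers summed to 22662 to 32852 CPM, 12 macrophage and monocyte markers to 4048 to 13146 CPM, 12 endothelial markers to 1518 to 2571 CPM and 10 smooth muscle and pericyte markers to 812 to 1483 CPM. Mean levels of these cardiomyocyte markers over the 16 libraries ran from 0.0744 CPM for Myh7 to 7.61 CPM for Tnnt2, so that they were low but not all absent. In such bulk samples, fewer cells of a type and less RNA per cell cannot be told apart. The Swhtr null libraries numbered 2 stood apart from the others of their groups. They had the lowest macrophage sums, 8099.7 CPM (untreated) and 4048 CPM (treated), and the highest levels of Grem1 and Bmp4. Values without them are given beside the results that they moved.

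Promoter sequences are shown for those members that varied together between libraries and whose window held no annotated exon of GENCODE M21, because a motif shared by such members would be visible in them. They are the 250 bases before the RefSeq start of Bmp4, Grem1, Smad6 and Smad9 (GRCm38.p6), read 5′ to 3′. RefSeq promoters were found for 8 of the 10 members, and Bmp2 and Id1 had no entry. Capitals mark GGCGCC, a core sequence bound by SMAD1 and SMAD5, and GTCTG or its reverse complement CAGAC, which contains the SMAD-binding element.
Bmp4 (chr14:46390670-46390919, minus strand): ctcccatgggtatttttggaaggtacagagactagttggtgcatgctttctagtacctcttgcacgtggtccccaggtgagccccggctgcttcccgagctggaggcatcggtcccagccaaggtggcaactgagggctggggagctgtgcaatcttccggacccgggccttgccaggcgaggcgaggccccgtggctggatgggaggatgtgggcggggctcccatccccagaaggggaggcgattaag
Grem1 (chr2:113758649-113758898, minus strand): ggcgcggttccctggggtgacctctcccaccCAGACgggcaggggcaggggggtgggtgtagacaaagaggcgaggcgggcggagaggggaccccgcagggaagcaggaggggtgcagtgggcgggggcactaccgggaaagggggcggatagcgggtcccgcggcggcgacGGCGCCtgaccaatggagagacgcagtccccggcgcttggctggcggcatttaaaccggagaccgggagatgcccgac
Smad6 (chr9:64022060-64022309, minus strand): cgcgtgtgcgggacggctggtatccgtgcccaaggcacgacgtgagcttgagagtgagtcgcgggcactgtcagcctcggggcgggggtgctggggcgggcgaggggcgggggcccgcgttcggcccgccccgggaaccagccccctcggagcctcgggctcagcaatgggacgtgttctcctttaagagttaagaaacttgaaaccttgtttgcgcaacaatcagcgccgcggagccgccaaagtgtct
Smad9 (chr3:54755332-54755581, plus strand): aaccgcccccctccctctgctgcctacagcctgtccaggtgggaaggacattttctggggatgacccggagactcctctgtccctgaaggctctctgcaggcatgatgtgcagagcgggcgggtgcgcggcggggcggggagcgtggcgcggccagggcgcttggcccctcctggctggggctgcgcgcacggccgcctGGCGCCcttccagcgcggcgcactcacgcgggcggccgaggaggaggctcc
Both motifs were searched on both strands, and GGCGCC is its own reverse complement. Grem1 held GGCGCC at 78 bases before the start and CAGAC at 219 bases. Smad9 held GGCGCC at 51 bases, and Bmp4 and Smad6 held neither motif in this window. Among the other members with a window, GGCGCC was found in Id2 and Bmpr2, and GTCTG or CAGAC in Id3, with 2 matches, and in Bmp6. Over all 32817 RefSeq promoters, 9.59% held GGCGCC and 42.2% held GTCTG or CAGAC in the same length. A match of letters describes the sequence and is not evidence of binding.

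To compare members with each other, CPM was divided by exon length in kilobases (RPKM). On this scale the Id genes led, with means over the 16 libraries of 116 RPKM for Id3, 55.0 RPKM for Id2 and 21.7 RPKM for Id1. They were followed by Smad6 at 14.8 RPKM, Bmp2 at 9.62 RPKM, Bmpr2 at 6.86 RPKM, Bmp6 at 4.55 RPKM, Bmp4 at 3.22 RPKM, Grem1 at 2.06 RPKM and Smad9 at 0.315 RPKM. The ranges over libraries did not overlap between Id3 and Id2, between Id2 and Id1, between Bmpr2 and Bmp6, and between Grem1 and Smad9. The other neighbours in this order overlapped, although Id1 exceeded Smad6, and Smad6 exceeded Bmp2, in each of the 16 libraries. Bmp4 exceeded Grem1 in 13 of the 16, so that their order differed between libraries.

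**Figure D1:**
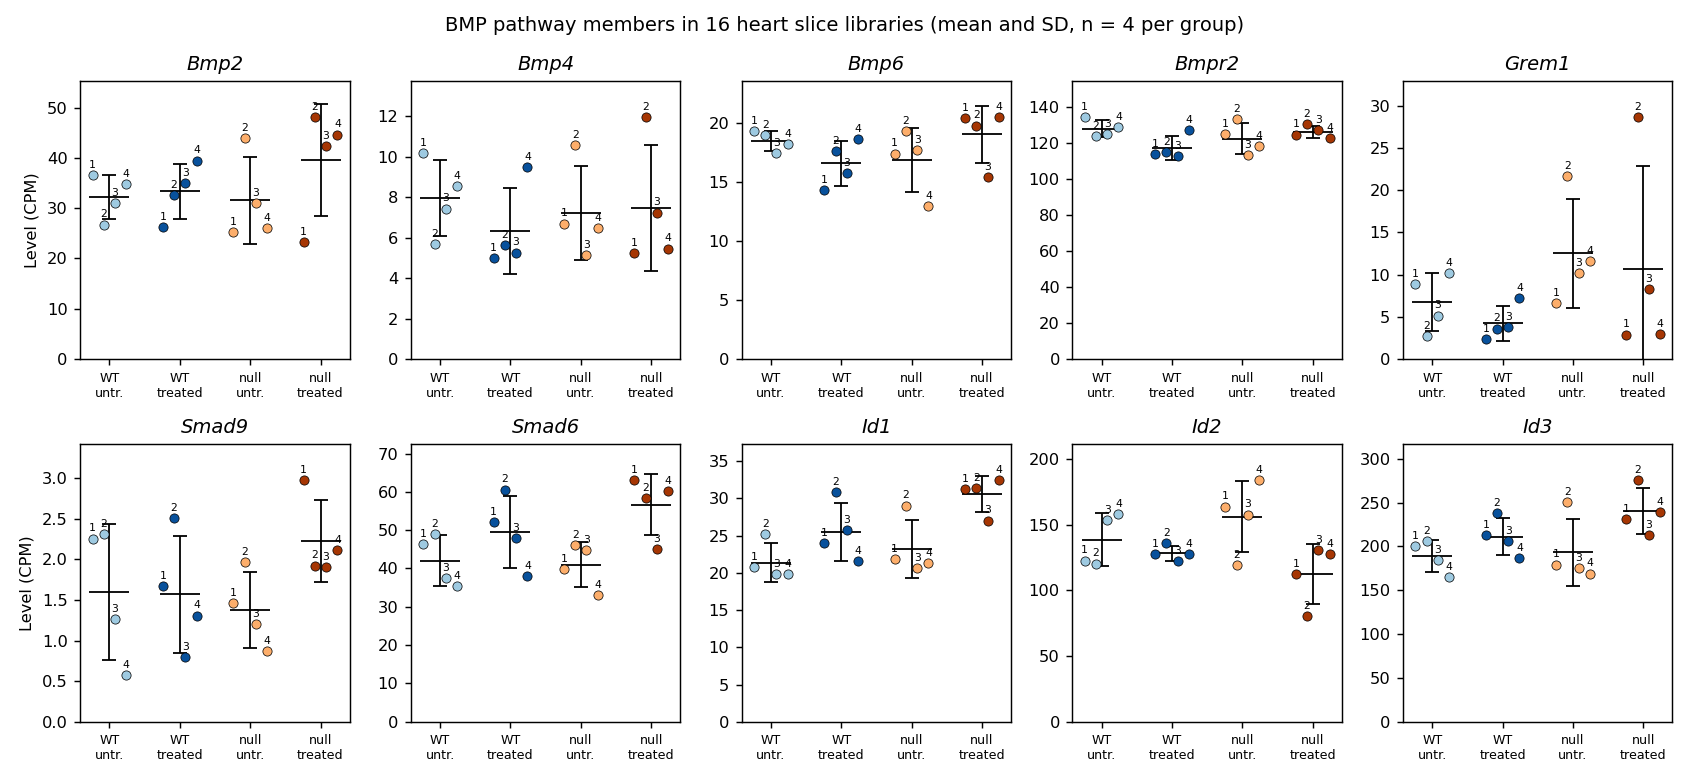
Level of each of the 10 members in the 16 libraries (vertical axis, CPM; each panel starts at 0 and has its own scale). Points are libraries with their replicate number, horizontal lines the mean and vertical lines the SD of the 4 libraries of a group (the SD of Grem1 in Swhtr null treated slices runs below 0 and is cut there). Id1 stood at 27.0 to 32.5 CPM in Swhtr null treated slices and at 20.6 to 29.0 CPM in untreated ones, and Grem1 was highest in the 2 Swhtr null libraries numbered 2.

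In all comparisons, calls required both a change of more than 1.5-fold (0.58 on the log2 scale) and an adjusted p under 0.05 in edgeR's quasi-likelihood test over 24971 genes. None of the 10 members was called in any comparison, by edgeR, DESeq2 or limma. The smallest p-values were those of target genes in Swhtr null slices after hypoxia and recovery, where Id1, Id3 and Smad6 had positive and Id2 negative log2 fold changes, all under the fold limit.

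Among the ligands, Bmp2 (chr2:133552159-133562885, plus strand), a ligand of endocardial and endothelial cells, measured 36.6, 26.7, 31.0 and 34.8 CPM in WT untreated slices (replicates 1 to 4) and 26.2, 32.7, 35.0 and 39.5 CPM in WT treated slices. The Swhtr null values were 25.2, 43.9, 31.0 and 26.002 CPM untreated and 23.3, 48.1, 42.4 and 44.6 CPM treated. Replicate 1 of the treated null group was the lowest of all 16 and the other 3 lay at or above 42.4 CPM, so that the groups overlapped. The log2 fold change with treatment was 0.05 (standard error 0.23) in WT and 0.33 (standard error 0.23, adjusted p = 0.51 from edgeR) in Swhtr null slices.

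Bmp4 (chr14:46383520-46390669, minus strand), a ligand for mesoderm and vascular development, measured 10.2, 5.67, 7.43 and 8.52 CPM in WT untreated and 4.97, 5.62, 5.26 and 9.48 CPM in WT treated slices. Its values were 6.68, 10.6, 5.14 and 6.46 CPM in Swhtr null untreated and 5.22, 11.9, 7.23 and 5.45 CPM in Swhtr null treated slices. The libraries numbered 2 were the highest in both null groups. Treated and untreated groups overlapped in both genotypes (log2 fold change -0.33, standard error 0.30, in WT and 0.06, standard error 0.30, in Swhtr null slices). Without treated replicate 2 the null value became -0.27, and without both libraries numbered 2 it became -0.03. Of its exon bases 3.96% are shared with Gm15217 on the opposite strand, which had 19 counts in total.

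Bmp6 (chr13:38345107-38500302, plus strand), a ligand known for inducing hepcidin, measured 17.4 to 19.3 CPM in WT untreated, 14.3 to 18.7 CPM in WT treated, 12.98 to 19.3 CPM in Swhtr null untreated and 15.4 to 20.5 CPM in Swhtr null treated slices. The log2 fold changes with treatment were -0.15 (standard error 0.12) and 0.18 (standard error 0.12). They pointed in opposite directions, and the difference between them was 0.33 (95% interval -0.02 to 0.68, adjusted p = 0.71 from edgeR). Of its exon bases 5.74% are shared with Txndc5 on the opposite strand, which had 100547 counts in total, and whether counting used strand is not stated, so that reads of Txndc5 could be included in its values.

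Bmpr2 (chr1:59763400-59879014, plus strand), which encodes the type II receptor mutated in heritable pulmonary arterial hypertension, had the smallest standard errors of the members. It measured 134, 124, 125 and 129 CPM in WT untreated and 114, 115, 112 and 127 CPM in WT treated slices. Replicate 4 of the treated WT group lay among the untreated values, and the other 3 lay below all of them. The estimated change was -0.13 on the log2 scale (standard error 0.06, adjusted p = 0.999 from edgeR). Its Swhtr null values were 113 to 133 CPM untreated and 123 to 130.3 CPM treated, with a log2 fold change of 0.04 (standard error 0.06). The difference of these responses was 0.17 (95% interval -0.01 to 0.35, adjusted p = 0.71 from edgeR).

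Grem1 (chr2:113746164-113758646, minus strand), which encodes gremlin, a secreted antagonist of BMP2 and BMP4, had the largest standard errors of the members. It measured 8.87, 2.73, 5.14 and 10.2 CPM in WT untreated and 2.39, 3.60, 3.76 and 7.25 CPM in WT treated slices. Swhtr null slices gave 6.59, 21.7, 10.2 and 11.6 CPM untreated and 2.88, 28.6, 8.28 and 2.98 CPM treated. The libraries numbered 2 held the 2 highest values of the series, and all other libraries lay at or below 11.6 CPM. The log2 fold change with treatment was -0.66 (standard error 0.74) in WT and -0.21 (standard error 0.70) in Swhtr null slices. In the null response it was -1.38 without treated replicate 2, 0.19 without untreated replicate 2 and -0.98 without both, and none of these was called. Against WT treated slices, Swhtr null treated slices had a log2 fold change of 1.34 (95% interval -0.25 to 2.92, adjusted p = 0.77 from edgeR), which became 0.17 without both libraries. The same 2 libraries had the lowest macrophage marker sums of their groups and the highest fibroblast marker sums, 27345 and 32852 CPM. They were also the highest of their groups in endothelial (1877 and 2571 CPM) and smooth muscle and pericyte sums (1101 and 1483 CPM). The same held for cardiomyocyte (12.8 and 102 CPM) and Schwann cell sums (19.1 and 42.4 CPM). The part of these sums in the Grem1 values was not tested.

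Smad9 (chr3:54755582-54801257, plus strand), one of the SMADs that carry the BMP signal, was the least abundant member, with 12 to 65 counts per library. Its level was 0.578 to 2.31 CPM in WT untreated, 0.793 to 2.50 CPM in WT treated, 0.872 to 1.97 CPM in Swhtr null untreated and 1.90 to 2.98 CPM in Swhtr null treated slices. One untreated null library lay above 2 of the treated ones, so that the groups overlapped. The log2 fold change in Swhtr null slices was 0.69 (standard error 0.38, adjusted p = 0.37 from edgeR) and in WT slices -0.03 (standard error 0.38). The interval of their difference ran from -0.40 to 1.84, and at this depth no difference was detectable.

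Smad6 (chr9:63953076-64022059, minus strand), the inhibitory SMAD that BMP signaling itself induces, measured 46.4, 48.9, 37.5 and 35.3 CPM in WT untreated and 52.0, 60.6, 47.8 and 38.0 CPM in WT treated slices. Its levels in Swhtr null slices were 39.9, 46.1, 44.7 and 33.0 CPM untreated and 63.1, 58.3, 44.998 and 60.3 CPM treated. Treated replicate 3 lay within the untreated null range and the other 3 lay above it. The fitted log2 fold change was 0.47 (standard error 0.15, adjusted p = 0.14 from edgeR) in Swhtr null and 0.24 (standard error 0.15, adjusted p = 0.999) in WT slices.

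Id1 (chr2:152736251-152737410, plus strand), the Id gene most often used as a readout of BMP signaling in endothelial cells, measured 20.8, 25.2, 19.8 and 19.8 CPM in WT untreated and 23.98, 30.8, 25.8 and 21.6 CPM in WT treated slices. The groups overlapped, with a difference of 0.26 on the log2 scale (standard error 0.12, adjusted p = 0.999 from edgeR). Swhtr null libraries had Id1 at 21.8, 29.0, 20.6 and 21.3 CPM untreated and 31.2, 31.4, 27.0 and 32.5 CPM treated. Untreated replicate 2 alone reached into the treated range. The log2 fold change was 0.40 (standard error 0.12, adjusted p = 0.084 from edgeR), the smallest adjusted p of any member in any comparison. Without untreated replicate 2 it was 0.52 (adjusted p = 0.0092), and 6.03% of all genes then had an adjusted p under 0.05. Between treated slices of the genotypes, Id1 differed by 0.26 on the log2 scale (standard error 0.12, adjusted p = 0.77 from edgeR), and between untreated slices 0.12 (standard error 0.12).

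Id3 (chr4:136143497-136145755, plus strand), a vascular Id gene that can stand in for Id1, was the most abundant member per length. It measured 200.05, 206, 185 and 165 CPM in WT untreated and 213, 238, 206 and 187 CPM in WT treated slices. Its Swhtr null levels were 179, 251, 175 and 169 CPM untreated and 231, 276, 213 and 239.6 CPM treated. Untreated replicate 2 lay above 3 of the 4 treated libraries, and the other untreated libraries lay below all of them. In edgeR the log2 fold change was 0.31 (standard error 0.12, adjusted p = 0.20 from edgeR) in Swhtr null and 0.16 (standard error 0.12) in WT slices. In the null response it was 0.46 (adjusted p = 0.0072) without untreated replicate 2.

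Id2 (chr12:25093799-25097140, minus strand), an Id gene that is also expressed in immune cells, had the opposite sign. It measured 123, 120.5, 154 and 158 CPM in WT untreated and 128, 136, 122 and 128 CPM in WT treated slices. In Swhtr null slices it measured 164, 119.5, 158 and 184 CPM untreated and 112, 80.6, 131 and 127 CPM treated. The 2 libraries numbered 2 were the lowest of their groups, and untreated replicate 2 alone reached into the treated range. Its log2 fold change was -0.47 (standard error 0.15, adjusted p = 0.13 from edgeR) in Swhtr null and -0.11 (standard error 0.15) in WT slices, with a difference of -0.36 (95% interval -0.82 to 0.10).

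**Figure D2:**
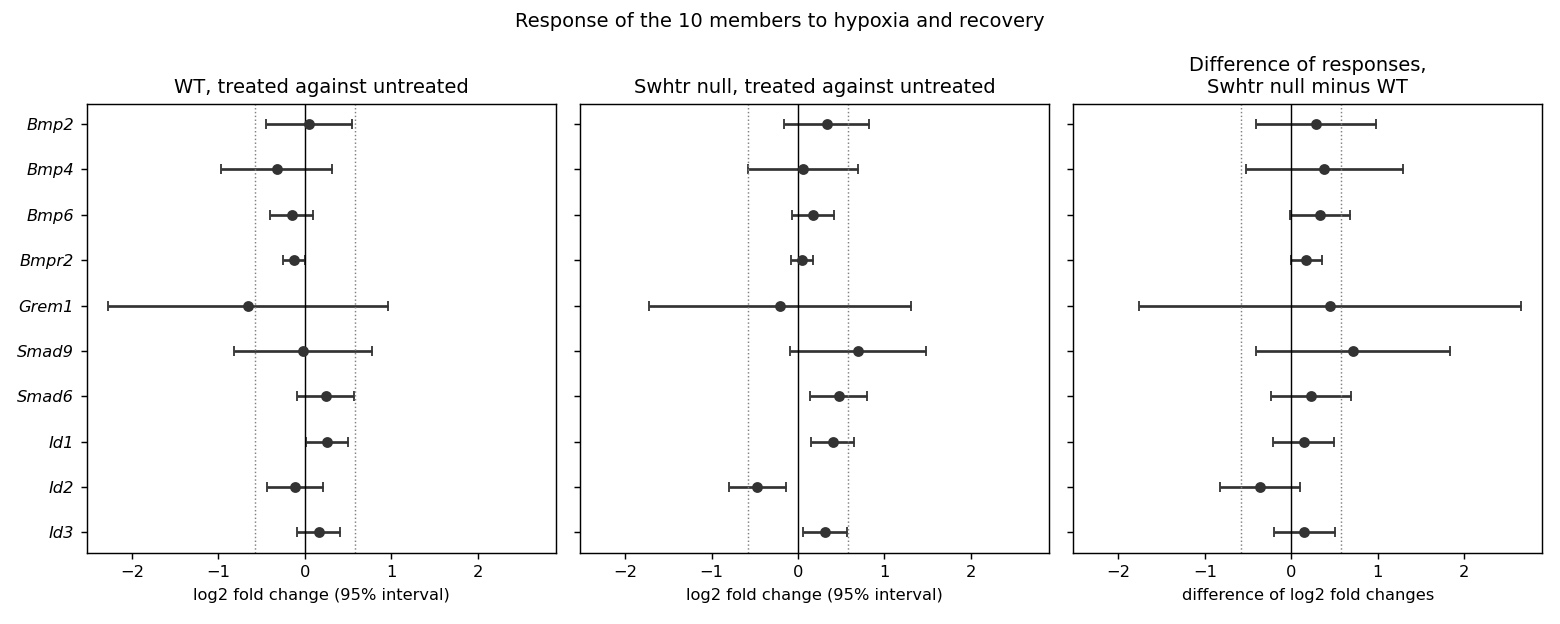
Log2 fold change of the 10 members with hypoxia and recovery in WT slices (left) and Swhtr null slices (middle), and the difference of these responses (right, Swhtr null minus WT). Points are edgeR estimates, bars 95% intervals, and dotted lines the fold limit of 0.58 in either direction. In Swhtr null slices the intervals of Smad6, Id1 and Id3 lay above 0 and that of Id2 below it, and all intervals of the difference included 0.

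In WT slices, 4 of the 10 members were higher and 6 lower after treatment, with a median log2 fold change of -0.07 beside 0.01 over all genes tested, of which 51.9% were higher. No member was called, beside 0.0% of all genes, and none had an adjusted p under 0.05, beside 0.004%. An unadjusted p under 0.05 was found for 2 of 10 members, Id1 (higher) and Bmpr2 (lower), beside 4.81% of all genes. The treated and untreated groups overlapped for each member, while 3.67% of all genes had groups that did not overlap.

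In Swhtr null slices, 8 members were higher and 2, Id2 and Grem1, lower, with a median of 0.24 beside 0.01 over all genes, of which 51.6% were higher. Without both Swhtr null libraries numbered 2, Bmp4 was lower as well. Again no member was called, beside 0.621% of all genes, and no member had an adjusted p under 0.05, beside 2.18%. An unadjusted p under 0.05 was found for Id1, Id3 and Smad6, which were higher, and for Id2, which was lower. These 4 of 10 stand beside 16.5% of all genes and 24.2% of the 14229 genes with a mean over 1 CPM. Groups did not overlap for 0 of 10 members and for 7.32% of all genes.

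Untreated and treated Swhtr null libraries of the same number deviated together most at number 2 (r = 0.59) and number 4 (r = 0.40). The value was 0.26 at number 3 and 0.15 at number 1, and untreated replicate 1 correlated more with treated replicate 4 (r = 0.20). The pairing by number is therefore uncertain. With the replicate number as a block on all 16 libraries, 4 of 10 members had an adjusted p under 0.05 from edgeR, beside 6.2% of all genes, and these were Id1 (log2 fold change 0.41, adjusted p = 0.0054), Id3 (0.32, adjusted p = 0.0051), Smad6 (0.47, adjusted p = 0.022) and Id2 (-0.48, adjusted p = 0.032). This block gives WT and Swhtr null libraries of the same number a shared effect. They came from different mice, and the WT libraries were not taken as paired, which limits this fit. With the block among the Swhtr null libraries alone, a fit added after the data were seen, the adjusted p from edgeR was 0.018 for Id1 (log2 fold change 0.41), 0.00089 for Id2 (-0.48) and 0.011 for Id3 (0.32), and 0.17 for Smad6 (0.47). In this second paired fit, 3 of 10 members and 8.39% of all genes had an adjusted p under 0.05, and in neither did a member pass the fold limit. Without both libraries numbered 2, the same 3 Id genes had an adjusted p under 0.05, beside 5.5% of all genes. DESeq2 gave an adjusted p under 0.05 to Id1, Id2 and Smad6, and limma to Id1 alone, and neither called a member. Beside these stand 9.17% of the 15764 genes to which DESeq2 gave an adjusted p, and 2.27% of the 24971 genes in limma. The share from DESeq2 thus rests on fewer genes. The ranges of the cell type marker sums overlapped between untreated and treated null slices, except for smooth muscle and pericyte markers. The macrophage sum was 8099.7 to 13146 CPM in untreated and 4048 to 10291 CPM in treated null slices. The smooth muscle and pericyte sum was 812 to 1101 CPM in untreated and 1180 to 1483 CPM in treated null slices, with no overlap. Endothelial markers summed to 1550.0 to 1877 and 1618 to 2571 CPM, fibroblast markers to 22662 to 27345 and 24878 to 32852 CPM, and Schwann cell markers to 14.4 to 19.1 and 16.6 to 42.4 CPM. Cardiomyocyte markers summed to 6.82 to 12.8 CPM in the untreated null slices and to 13.7, 102, 72.3 and 10.3 CPM in treated replicates 1 to 4. Epicardial and mesothelial markers summed to 11.7 to 42.1 CPM in untreated and 8.69 to 44.0 CPM in treated null slices. The part of these marker sums in the Id and Smad6 values was not tested.

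Between the genotypes, 4 members were higher and 6 lower in untreated Swhtr null than in untreated WT slices, with a median of -0.04 beside 0 over all genes, of which 49.8% were higher. No member was called in edgeR, none had an adjusted p under 0.05 and none an unadjusted p under 0.05, beside 0.1%, 0.124% and 5.36% of all genes, and DESeq2 and limma called none either. After treatment, 9 members were higher and Id2 was lower in Swhtr null slices, with a median of 0.22 beside -0.00 over all genes, of which 49.7% were higher. No member was called, beside 0.0921% of all genes, or had an adjusted p under 0.05, beside 0.112%, and only Id1 had an unadjusted p under 0.05, beside 6.25%. The groups overlapped for each member in both comparisons, beside 2.86% of all genes without overlap in untreated and 4.06% in treated slices. These comparisons share libraries with those of treatment and are not independent of them.

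The difference of the responses, Swhtr null minus WT, was above 0 for 9 members and below 0 for Id2, with a median of 0.26 beside 0.00 over all genes, of which 50.2% were above 0. None had an unadjusted p under 0.05, beside 6.89% of all genes, the smallest adjusted p from edgeR was 0.71, and no member was called, beside 0.0% of all genes. A stronger response of the Id genes in Swhtr null slices was therefore not shown by the test of the difference. The 95% intervals were -0.21 to 0.49 for Id1, -0.20 to 0.50 for Id3 and -0.24 to 0.69 for Smad6.

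The rest of the pathway was read from a list of 54 further genes, of which 49 had at least 10 counts in total and were tested (Bmp7, Bmp10, Gdf2, Sostdc1 and Cer1 were not). In WT slices, 24 were higher and 25 lower after treatment (median -0.00), and none was called. In Swhtr null slices, 36 were higher and 13 lower (median 0.20), with 1 called in each direction, and at an unadjusted p under 0.05 there were 15 higher genes and 3 lower ones. These 18 of 49 stand beside 16.5% of all genes and 24.2% of those over 1 CPM, the 2 calls beside 0.621% and the 36 higher genes beside 51.6%. By role, 9 of 10 receptors and 12 of 16 antagonists were higher in treated null slices, with 5 and 6 of them at an unadjusted p under 0.05, while ligands were split 4 to 4. Among these ligands only Gdf6 averaged over 1 CPM (37.4 CPM), and the next most abundant, Bmp5, averaged 0.546 CPM. The split therefore rests mostly on genes with very few counts. It leaves out the member ligands Bmp2, Bmp4 and Bmp6, whose estimates in the null response were above 0. That of Bmp4 was small and changed sign without both null libraries numbered 2.

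Smad7, the inhibitory SMAD shared by TGF-beta and BMP signaling, was lower in treated than in untreated slices of both genotypes. It measured 103, 99.4, 113 and 96.1 CPM in Swhtr null untreated and 67.6, 72.8, 68.4 and 64.5 CPM in treated slices, without overlap, and fell by 0.59 on the log2 scale (standard error 0.06, adjusted p = 0.00019 from edgeR). This lies close to the fold limit, and Smad7 was not called without untreated replicate 3 or without treated replicate 4. In WT slices it measured 82.4 to 94.97 CPM untreated and 61.2 to 66.1 CPM treated (log2 fold change -0.48, standard error 0.06, adjusted p = 0.0063), under the fold limit.

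Id4, another Id gene, measured 2.73, 3.15, 1.65 and 1.90 CPM in Swhtr null untreated and 8.20, 4.39, 3.29 and 4.73 CPM in treated slices. All treated libraries lay above the untreated ones, and Id4 rose by 1.12 on the log2 scale (standard error 0.29, with an adjusted p of 0.049 from edgeR), a call that was lost in most alternatives. In WT slices the log2 fold change was 0.16 (standard error 0.29). Fstl3, which encodes a follistatin-like binding protein of activins, was at 19.0 to 21.5 CPM in untreated and 13.3 to 17.4 CPM in treated null slices, a change of -0.44 on the log2 scale (standard error 0.10, adjusted p = 0.029 from edgeR) and under the fold limit.

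Of the receptor genes, 4 had an unadjusted p under 0.01 in the null response. None had an adjusted p under 0.05 in the edgeR fit of 4 group means to all 16 libraries. Eng, the endothelial co-receptor endoglin, was higher by a log2 fold change of 0.31 (standard error 0.10), Acvrl1, its partner ALK1, 0.20 (standard error 0.07), Acvr1, a type I receptor, 0.24 (standard error 0.08) and Rgma, a BMP co-receptor, 0.61 (standard error 0.19). Their adjusted p from edgeR lay between 0.10 and 0.14. With the block among the null libraries alone it was 0.0021 for Rgma, 0.022 for Acvr1, 0.023 for Acvrl1 and 0.077 for Eng. In that fit 8.39% of all genes had an adjusted p under 0.05, and Rgma was among 531 genes called. Rgma was also among the 450 genes called with the block on all libraries and the 464 called by DESeq2. These 4 genes were named for their p in the same libraries, so that such fits are not independent of that choice. Rgma measured 17.3, 22.1, 18.3 and 13.2 CPM in untreated and 22.8, 39.7, 23.1 and 22.4 CPM in treated null slices, so that treated replicate 2 stood above all others. Without that library its log2 fold change was 0.36 (adjusted p = 0.25 from edgeR), and without both libraries numbered 2 it was 0.48 (adjusted p = 0.030). Without both, the adjusted p from edgeR was also under 0.05 for Acvrl1 (log2 fold change 0.23, adjusted p = 0.027) and Acvr1 (0.27, adjusted p = 0.032). For Eng it was 0.21 (log2 fold change 0.27). In that fit 5.5% of all genes had an adjusted p under 0.05. In untreated slices, Bambi, a decoy receptor, had a log2 fold change of -0.36 and Smad7 of 0.21 between Swhtr null and WT, each with an adjusted p of 0.90 from edgeR. Bmp15 had an unadjusted p of 0.0047 for the difference of responses, but it had at most 7 counts in any library. The most abundant genes of their roles per length were Fstl1 at 311 RPKM among the antagonists, Eng at 72.0 RPKM among the receptors and Gdf6 at 10.6 RPKM among the ligands. The SMAD genes were led by Smad4, the common partner, at 20.0 RPKM and by Smad7 at 17.9 RPKM, the ubiquitin ligases by Smurf2 at 14.9 RPKM, and the further targets by Atoh8 at 14.03 RPKM.

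**Figure D3:**
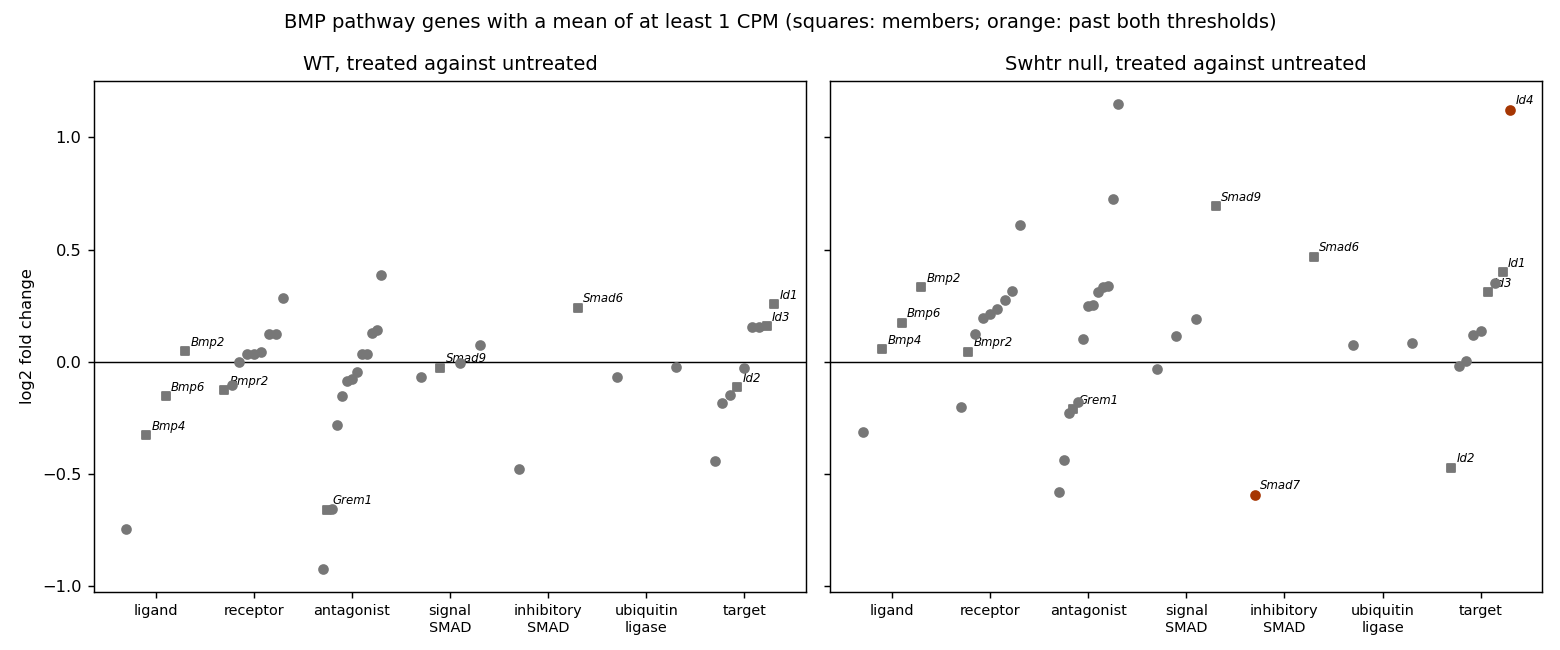
Log2 fold change with treatment of the 43 BMP pathway genes with a mean of at least 1 CPM, arranged by role, in WT slices (left) and Swhtr null slices (right). Squares are the 10 members, circles the other genes of the list, and orange marks the genes past both thresholds, Smad7 and Id4 in Swhtr null slices.

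Members also varied together between libraries of the same group. Deviations of log2 CPM from the group means were correlated over the 16 libraries for all 45 pairs, with two-sided exact permutation tests within groups. Since libraries share mice, they are not fully independent. After adjustment over the 45 pairs, 9 had an adjusted p under 0.05 by Pearson's r and 8 by Spearman's rho. Where libraries were left out, the group means were taken again over the others.

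One set joined Bmp4 with its antagonist. Bmp4 and Grem1 had r = 0.90 and rho = 0.85 (exact permutation p = 0.00032 and 0.00077, adjusted p = 0.0059 and 0.011), and r = 0.82 without the 2 libraries farthest from the median of Bmp4. Bmp4 and Bmpr2 had r = 0.87 and rho = 0.83 (exact permutation p = 1.5e-05 and 5.4e-05, adjusted p = 0.00068 and 0.0024), and r = 0.90 without the 2 farthest. Bmpr2 and Grem1 had r = 0.59 and rho = 0.56 (exact permutation p = 0.0050 and 0.025, adjusted p = 0.035 and 0.093), and r = 0.47 without the 2 farthest. Bmp2 and Grem1 passed by Spearman's rho only, with r = 0.72 and rho = 0.75 (exact permutation p = 0.012 and 0.0027, adjusted p = 0.054 and 0.020), and r = 0.65 without the 2 farthest. Without the Swhtr null libraries numbered 2, r was 0.81 for Bmp4 with Grem1, 0.90 for Bmp4 with Bmpr2, 0.52 for Bmpr2 with Grem1 and 0.65 for Bmp2 with Grem1.

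Another set joined the inhibitory and signal SMADs with Id1 and Id3. Id1 and Id3 had r = 0.86 and rho = 0.85 (exact permutation p = 0.00039 and 0.00014, adjusted p = 0.0059 and 0.0032), and r = 0.69 without the 2 farthest. Smad6 and Id1 had r = 0.75 and rho = 0.81 (exact permutation p = 0.0049 and 0.0014, adjusted p = 0.035 and 0.012), and r = 0.64 without the 2 farthest. Smad6 and Id3 had r = 0.72 and rho = 0.74 (exact permutation p = 0.0054 and 0.0037, adjusted p = 0.035 and 0.024), and r = 0.65 without the 2 farthest. Smad9 and Smad6 had r = 0.72 and rho = 0.85 (exact permutation p = 0.0068 and 0.00099, adjusted p = 0.038 and 0.011), and r = 0.60 without the 2 farthest. Smad9 and Id3 had r = 0.63 and rho = 0.64 (exact permutation p = 0.0090 and 0.015, adjusted p = 0.045 and 0.069), and r = 0.49 without the 2 farthest. Id2 and Id3 were opposed, with r = -0.78 and rho = -0.71 (exact permutation p = 0.0052 and 0.0065, adjusted p = 0.035 and 0.037). The 2 farthest libraries of this pair were the Swhtr null libraries numbered 2, the lowest of their groups in Id2 and the highest in Id3, and r was -0.48 without them. Without the same libraries, r was 0.85 for Id1 with Id3, 0.78 for Smad6 with Id1, 0.89 for Smad6 with Id3, 0.71 for Smad9 with Smad6 and 0.81 for Smad9 with Id3.

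**Figure D4:**
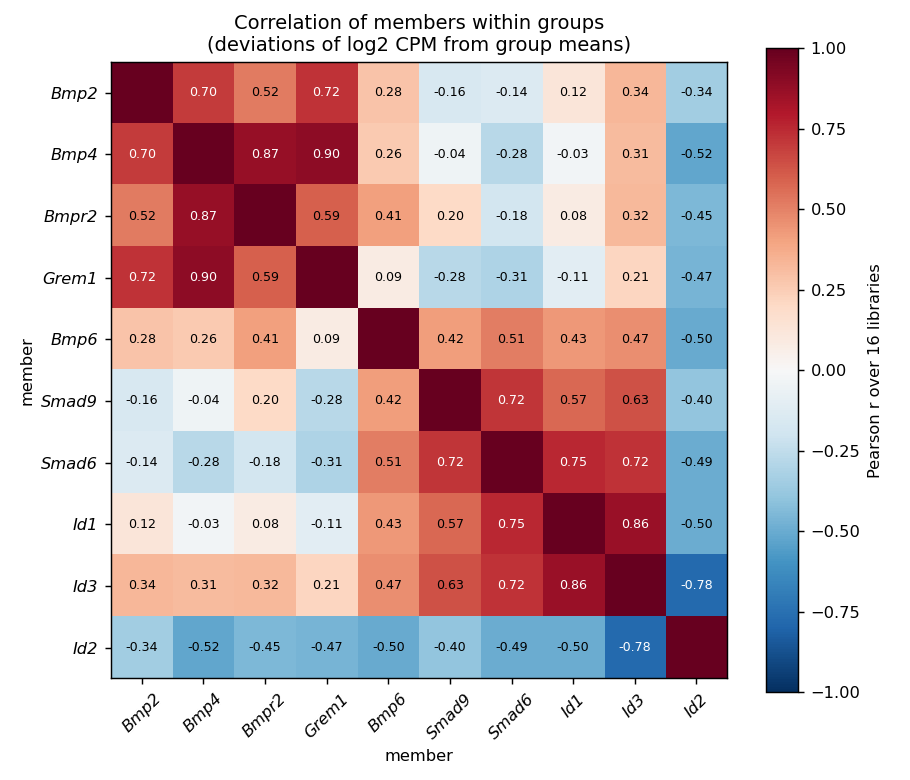
Pearson correlation between members over the 16 libraries, after subtracting each group's mean from log2 CPM; color and numbers give r. Bmp4, Bmpr2, Grem1 and Bmp2 form a block of positive values between 0.52 and 0.90, and Smad9, Smad6, Id1 and Id3 another between 0.57 and 0.86, while Id2 is negative with all other members. Without the Swhtr null libraries numbered 2, which are included here, Id2 had r of 0.30 with Bmp2, 0.24 with Bmp4 and 0.40 with Grem1, r between Bmp2 and Bmpr2 was 0.26, and r of Id3 with Bmp4 was -0.54 (0.31 with them). Between genes of the first block and genes of the other, r then ran from -0.69 (Grem1 with Smad6) to 0.07 (Bmpr2 with Smad9), the only pair above 0. With them it ran from -0.31 (Grem1 with Smad6) to 0.34 (Bmp2 with Id3).

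The genes whose levels followed a member most closely were sought among 9363 genes with a mean of at least 10 CPM, by Pearson's r of deviations from the group means over the 16 libraries and as a description only. For Id1 they were Slc25a4 (r = 0.93), Lmna (r = 0.92) and Txndc5 (r = 0.90). For Bmp4 they were Atrnl1 (r = 0.93), Sgms2 (r = 0.92) and Nox4 (r = 0.92). For Grem1 they were Camk2n1 (r = 0.92), Eif2s3y (r = 0.91) and Socs3 (r = 0.90). Without the Swhtr null libraries numbered 2, r of these genes was 0.85 to 0.92 for Id1, 0.84 to 0.88 for Bmp4 and 0.75 to 0.92 for Grem1.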

How the data were processed

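Heart slice RNA was sequenced as paired-end libraries. According to their methods, the authors used STAR for alignment (mm10, GRCm38) and GenomicAlignments for counts per Ensembl gene. The deposited values are raw counts, whole numbers that differ in total between libraries, and all 16 columns were used. The library kit in the methods differs from that in the labels, and whether counting used strand is not given in the sources used here. Symbols and positions were taken from GENCODE M21, in which 55141 of 55487 gene identifiers were found, and Hjv is listed there as Hfe2. The members and lists were chosen with earlier results of these data known.

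Counts were fitted with edgeR 4.0.16 (R 4.3.3). The 24971 genes whose counts summed to 10 or more were kept, scaled by TMM and fitted with 4 group means (12 residual degrees of freedom), and groups were compared by the robust quasi-likelihood test with Benjamini-Hochberg adjustment over all genes tested. The study itself used DESeq2, which is run here as an alternative (DESeq2 1.42.0), as is limma 3.58.1 with quality weights. Other alternatives were DESeq2's size factors, no filter, edgeR's filter by expression, only the libraries compared, no fold threshold, a replicate block and leaving out each library. A block among the Swhtr null libraries alone and a fit without both Swhtr null libraries numbered 2 were added after the data were seen. All 10 members are named, and of the pathway list the genes with an unadjusted p under 0.01 in a comparison and the most abundant of each role. For likeness, the 3 genes with the highest r to Id1, Bmp4 and Grem1 are given. Log2 CPM used a prior count of 2.

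The replicate numbers are those of the labels. Deviations of same-numbered libraries correlated at 0.15, 0.59, 0.26 and 0.40 between untreated and treated Swhtr null slices, and at -0.11, -0.08, 0.16 and 0.32 between the WT groups, so that only the null libraries were taken as paired, a pairing that comes from the data and is not stated in the labels. Some null libraries correlated more with another number, as untreated replicate 4 did with treated replicate 3 (0.33, against 0.26 for number 3). Untreated WT and null libraries came from different mice, yet correlated at 0.38 for number 2 and 0.37 for number 4 (0.10 and 0.01 for numbers 1 and 3). The number is therefore not shown to be the mouse. No 2 libraries of a group were duplicates (lowest chi-square per degree of freedom 7.62). The fitting steps were tested on simulated counts with the means and spread of these data. Of 100 genes changed 2-fold, 70 to 84 were called, depending on the comparison. Smaller changes, such as those of the Id genes here, were not simulated. Depth was 17830351 to 29941903 counts, which left Smad9 with 12 to 65 counts per library.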

Additional observations from a re-analysis of the deposited data

Results flagged for a closer look

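In 40 groups of 4 libraries, 10 members in 4 groups each, 5 had a library whose gap to the nearest other one, relative to the group's whole range, exceeded the 95% critical value of Dixon's test for 4 values, and chance gives about 1 in 20 such groups. The groups share libraries, and some members vary together, so these 5 are not independent of each other. Bmp4 measured 9.48 CPM in WT treated replicate 4, and the other WT treated libraries lay at 4.97 to 5.62 CPM. Bmpr2 measured 127 CPM in the same library, and the others lay at 112 to 115 CPM. Bmp6 measured 15.4 CPM in Swhtr null treated replicate 3, and the others lay at 19.8 to 20.5 CPM. Id1 measured 29.0 CPM in Swhtr null untreated replicate 2, and the others lay at 20.6 to 21.8 CPM. Id3 measured 251 CPM in the same library, and the others lay at 169 to 179 CPM.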

How the results depend on the processing

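The count of members called was 0 in each of the 5 comparisons under every alternative run. Of 1190 log2 fold changes of single members under alternatives, 1174 moved by no more than the standard error of the main edgeR fit and 16 by more. Of the 1190, 34 changed sign, none of them called. In the null response, leaving out 1 library gave log2 fold changes of 0.35 to 0.52 for Id1 (adjusted p 0.0092 to 0.28), -0.58 to -0.34 for Id2 (adjusted p 0.029 to 0.39), 0.24 to 0.46 for Id3 (adjusted p 0.0072 to 0.46) and 0.38 to 0.56 for Smad6 (adjusted p 0.057 to 0.39), all from edgeR. Without both Swhtr null libraries numbered 2, the difference between untreated genotypes became -0.01 for Id1 and -0.11 for Id3 (0.12 and 0.03 with them), and between treated genotypes -0.08 for Bmp4 (0.24 with them). The number of pathway genes called in the null response was 2. It was 1 with DESeq2's size factors, with the filter by expression, with only the libraries compared and with limma, 3 with DESeq2, 4 with the replicate block on all libraries or among the null libraries alone, and 6 without both null libraries numbered 2. Leaving out 1 library gave 0 to 5, with 0 without Swhtr null untreated replicate 3 or treated replicate 4 and 5 without untreated replicate 2. The cause was not tested. Over all genes, the null response called 155 genes, 146 to 198 with DESeq2's size factors, no filter, the filter by expression or limma, 6 with only the libraries compared, 450 with the replicate block, 531 with the block among the null libraries alone, 464 with DESeq2, 544 with no fold threshold and 423 without both null libraries numbered 2. Leaving out 1 library gave 22 (without null untreated replicate 4) to 575 (without null untreated replicate 2). Paired fits changed no call of a member. Pairs of members with an adjusted Pearson p under 0.05 numbered 9, or 10 with DESeq2's size factors. Depth limits Smad9 and the low pathway genes most.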
